A study of Mus musculus with 11 samples.

Results

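The oxidative phosphorylation subunits are the nuclear-encoded proteins of the mitochondrial respiratory chain and of ATP synthase, taken here by gene name (Nduf subunits of types a, b, c, s and v, Sdha to Sdhd, Uqcr, Cox4 to Cox8, and Atp5). The rule found 79 of the 11366 genes in the deposited table, and all 79 passed the filter on low values (3 or more libraries with an RPKM of 1 or higher). RPKM scales the reads of a gene to the length of its model and to the size of the library. The names gave 35 subunits of complex I, 4 of complex II, 8 of complex III, 13 of complex IV and 17 of complex V. Ndufa4, named for complex I, was counted in complex IV, where its protein is now placed, together with the supercomplex factor Cox7a2l. The remaining 2 were gene copies, Ndufb4c and Ndufs5-ps. Genes outside the name rule, such as Ndufab1 and Cyc1, and the subunits encoded in mitochondrial DNA were not among the 79, and the latter were not analysed here.

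The study measured mRNA in sorted epithelial cells of the small intestine of wild-type (WT) mice, in 11 RNA-seq libraries of 3 groups. Control mice ate standard chow (n = 3), NFF mice ate a diet low in fermentable fiber and had no further treatment (n = 4), and SFB mice ate standard chow and were colonized with SFB, an abbreviation that the labels do not spell out (n = 4). In every group live cells were sorted as CD45-CD31-EpCAM+CD44-, that is, for the epithelial marker EpCAM and against leukocyte, endothelial and CD44-bearing cells. Whether each library is a different animal is not stated in the labels, and p-values therefore reflect the spread among these samples alone, part of which may be technical.

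Complexes I and II pass electrons from NADH and succinate to coenzyme Q, complex III passes them on to cytochrome c, and complex IV to oxygen. Complexes I, III and IV pump protons across the inner mitochondrial membrane, and complex V uses the returning protons to make ATP. Absorptive enterocytes use this ATP for active nutrient uptake, and mature villus cells are richer in mitochondria than the dividing cells of the crypt. Except for complex II, the assembled complexes combine subunits from the nuclear and the mitochondrial genome.

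Some libraries stood apart from the others in markers of gut position and of cell state, and these bear on every comparison that follows. Epcam was at 489 to 670 RPKM in all 11 libraries, while Ptprc, which encodes CD45, was at 0.247 to 2.48 and Cd44 at 0.333 to 2.29. Control 2 held 2835 RPKM summed over 7 proximal small intestine markers, against 211 and 333 in the other Control libraries. Its sum over 10 distal markers was 604, against 4516 and 4895. SFB 4 had the highest sum over 16 dividing cell markers, 369 RPKM against 42.3 to 182 in the other libraries. Its sum over 10 enterocyte markers was 1927, the lowest of all libraries. SFB 2 had 432 RPKM over 9 Paneth cell markers, against 8724 to 32671 elsewhere. Sequencing depth is unknown because the table holds no counts, and sums of RPKM over all genes were 237248 to 302661 per library.

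The respiratory chain genes were among the most abundant mRNAs of these cells. The median member stood at 101 RPKM over the 11 libraries, against 6.28 for the median tested gene, and 65 of 79 members (82.3%) lay in the top 10% of tested genes, which starts at 43.4 RPKM. Individual means ran from 15.8 RPKM for Ndufb2, an accessory subunit of the complex I membrane arm, to 427 for Cox6a1, the broadly expressed form of a small complex IV subunit. Median levels of the complexes were 69.3 RPKM for I, 159 for II, 141 for III, 149 for IV and 115 for V. RPKM corrects for gene length, so levels can be set side by side between genes, as far as the gene models that the authors used are right.

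**Figure D1:**
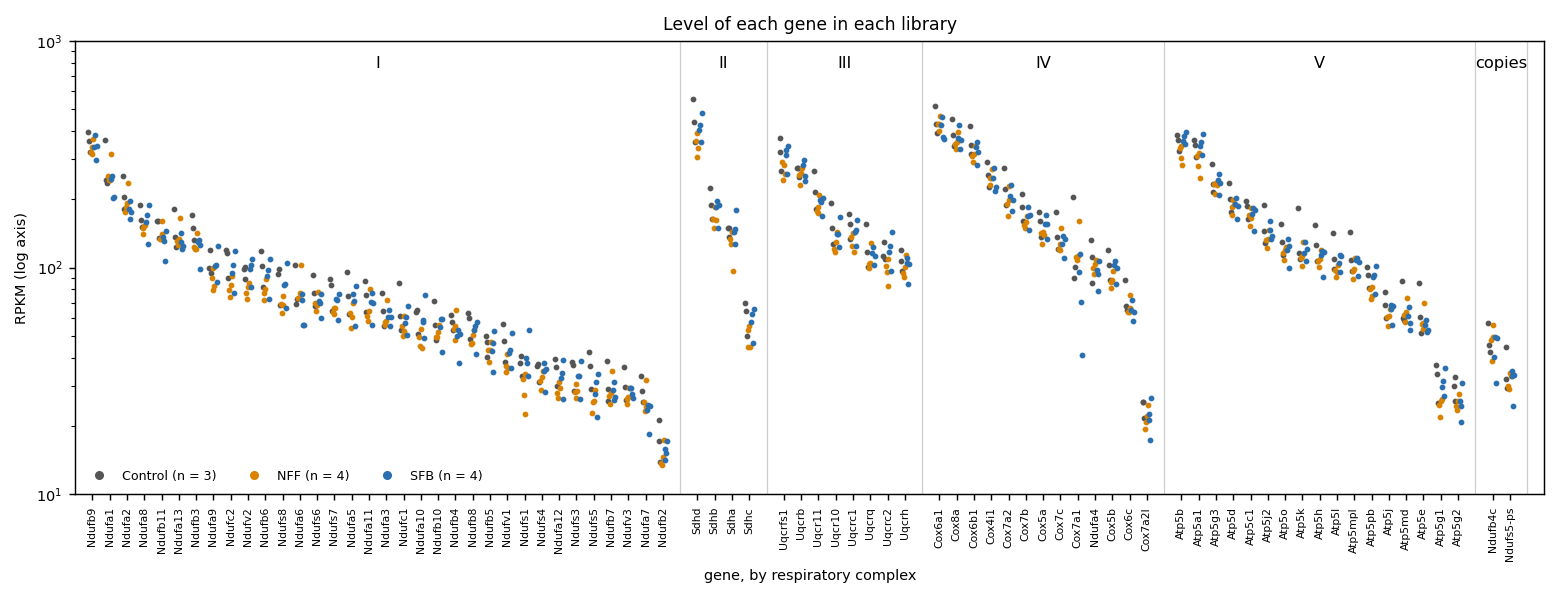
RPKM (log axis) of 78 of the 79 genes in each of the 11 libraries, grouped by respiratory complex and ordered by mean within it, with 1 point per library coloured by group. The levels run from about 13.4 RPKM (Ndufb2, NFF 2) to 554 RPKM (Sdhd, Control 2), and for most genes the libraries of the 3 groups overlap.

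Subunits of 1 complex did not share 1 RPKM level. In complex II, which holds 1 copy of each subunit, the membrane anchor Sdhd averaged 401 RPKM and the other anchor Sdhc 55.8 RPKM, a ratio of 7.19. The catalytic flavoprotein Sdha stood at 140 RPKM and the iron-sulfur protein Sdhb at 178 RPKM. Complex III was the most even, from 102 RPKM for Uqcrh to 298 RPKM for the Rieske iron-sulfur protein Uqcrfs1, a ratio of 2.91. Its core proteins Uqcrc1 and Uqcrc2 stood at 141 and 111 RPKM, and the small subunit Uqcrq at 115 RPKM. In complex I the levels spread over a ratio of 21.9, from Ndufb2 to Ndufb9 at 345 RPKM, an accessory subunit of the membrane arm. Transcript lengths in GENCODE were 4371 bases for Ndufb2 and 704 for Ndufb9, and 3171 for Sdhc and 1231 for Sdhd. The part of length in these ratios was not tested. The 7 nuclear-encoded core subunits of complex I, which carry its flavin and iron-sulfur clusters, had a median of 70.6 RPKM, with Ndufs3 lowest at 31.8 RPKM. In complex IV the lowest was Cox7a2l at 22.5 RPKM, while Cox6a1, Cox8a and Cox6b1 stood at 427, 374 and 332 RPKM and the small subunit Cox6c at 68.1 RPKM. In complex V the catalytic subunits Atp5b and Atp5a1 led at 348 and 325 RPKM, and the central stalk subunit Atp5c1 stood at 172 RPKM.

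The alternative tissue forms of complex IV were unevenly represented. Cox4i1, Cox6a1, Cox6b1 and Cox8a, the broadly expressed forms, had rows in the table at 249, 427, 332 and 374 RPKM. Their counterparts Cox4i2, Cox6a2, Cox6b2, Cox8b and Cox8c, and the Ndufa4 relative Ndufa4l2, were not analysed here. Cox7a1, the form best known from heart and skeletal muscle, was the exception and was abundant at 110 RPKM, next to 208 RPKM for the broadly expressed Cox7a2. In complex V, Atp5g1, Atp5g2 and Atp5g3 encode the same mature c subunit of the rotor ring. Atp5g3 held 77.7% to 82.6% of their summed RPKM in every library. Atp5g1 and Atp5g2 shared the rest at 8.58% to 11.9% and 7.84% to 11%. Similar transcripts of other genes were sought at 95% identity or more over at least 100 bases. Atp5g2 matched a processed pseudogene over 645 bases and Atp5g1 matched one over 411, while Atp5g3 had no match. Transcript lengths in GENCODE were 4715 bases for Atp5g1, 731 for Atp5g2 and 723 for Atp5g3. The part of these copies and lengths in the shares was not tested.

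The promoters of the 79 genes were searched because nuclear respiratory factor 1 (NRF-1), ETS family factors such as GABP, and YY1 are textbook regulators of respiratory chain genes. RefSeq windows of GRCm38.p6, from 250 bases before to 50 after a start site, were found for 65 members in 70 windows. The NRF-1 motif GCGCANGC, on either strand, lay in 34.3% of member windows, against 19.9% of windows of tested genes and 9.95% of all 32851 windows. The ETS motif CCGGAAG lay in 24.3%, against 19.0% and 8.86%, and the YY1 motif AAGATGGC in 14.3%, against 4.83% and 2.75%. At least 1 of the 3 motifs lay in 58.6% of member windows, against 37.4% of windows of tested genes. The ETS motif ends in the letters AAG that open the YY1 motif, so these matches can overlap, and a match describes the sequence only. By complex, an NRF-1 motif was found in 10 of 33 windows of complex I, 3 of 3 of II, 2 of 5 of III, 1 of 11 of IV and 8 of 18 of V. All 10 windows with a YY1 motif belonged to complexes I and V.

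Stretches of 150 bases are shown for the Cox7a pair, which holds the most variable member, for Ndufs5 and Ndufc2, which had the lowest p in NFF against Control, and for Uqcr11 and Atp5e as examples of the ETS motif. Each ends just before the first base that RefSeq or GENCODE gives to the gene, and capitals mark a motif. They lie upstream of Cox7a1 at chr7:30183994-30184143 (plus strand), Cox7a2 at chr9:79759879-79760028 (minus strand), Ndufs5 at chr4:123718203-123718352 (minus strand), Ndufc2 at chr7:97399853-97400002 (plus strand), Uqcr11 at chr10:80406831-80406980 (minus strand) and Atp5e at chr2:174464106-174464255 (minus strand), all in GRCm38.p6 and written 5′ to 3′ on the strand of the gene.
Cox7a1: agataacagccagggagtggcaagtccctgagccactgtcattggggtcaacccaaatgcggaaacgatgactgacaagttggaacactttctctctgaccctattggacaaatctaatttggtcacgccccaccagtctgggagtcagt
Cox7a2: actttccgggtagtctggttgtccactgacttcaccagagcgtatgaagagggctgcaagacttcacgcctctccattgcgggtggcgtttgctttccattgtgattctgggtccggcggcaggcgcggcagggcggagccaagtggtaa
Ndufs5: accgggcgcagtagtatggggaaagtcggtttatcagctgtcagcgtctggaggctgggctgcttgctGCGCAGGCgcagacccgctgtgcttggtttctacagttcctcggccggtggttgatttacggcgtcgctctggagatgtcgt
Ndufc2: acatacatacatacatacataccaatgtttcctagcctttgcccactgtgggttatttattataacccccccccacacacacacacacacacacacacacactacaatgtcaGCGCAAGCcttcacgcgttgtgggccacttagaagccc
Uqcr11: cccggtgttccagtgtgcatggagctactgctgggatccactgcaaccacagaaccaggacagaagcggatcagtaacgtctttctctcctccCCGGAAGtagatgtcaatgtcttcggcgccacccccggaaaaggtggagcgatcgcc
Atp5e: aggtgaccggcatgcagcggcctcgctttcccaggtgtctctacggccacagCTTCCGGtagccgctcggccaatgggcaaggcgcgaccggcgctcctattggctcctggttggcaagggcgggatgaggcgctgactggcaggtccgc
None of the 3 motifs lay in the windows of Cox7a1 or Cox7a2. Ndufs5 and Ndufc2 each hold 1 NRF-1 motif in the stretch shown, and Uqcr11 and Atp5e each hold 1 ETS motif.

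In some libraries most of the 79 genes deviated the same way, and the same few libraries set the extremes. Each gene was expressed as its deviation from its own mean over the 11 libraries, in log2 units. The median deviation was 0.34 in Control 2, 0.11 in Control 4 and -0.11 in Control 5. It was -0.09, -0.18, -0.04 and 0.05 in NFF 1 to 4, and 0.02, 0.10, -0.21 and 0.08 in SFB 1 to 4. Members went both ways in NFF 4 and SFB 4, where Ndufs1 was at -0.60 and 0.59 and Cox7a1 at 0.64 and -1.29. Control 2 gave the highest value for 60 of 79 members and SFB 4 for 14, while SFB 3 gave the lowest for 39 and NFF 2 for 28. The groups overlapped on this measure, since Control 5 lay below 3 of the 4 NFF libraries. Summed over the 79 genes, the Control libraries reached 10715 ± 1600 RPKM (SD, n = 3), the NFF libraries 9418 ± 555 (SD, n = 4) and the SFB libraries 9895 ± 917 (SD, n = 4). These sums made up 3.36% to 4.38% of all RPKM in a library. In sorted bulk samples, fewer cells rich in mitochondria and less of these mRNAs per cell cannot be told apart.

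**Figure D2:**
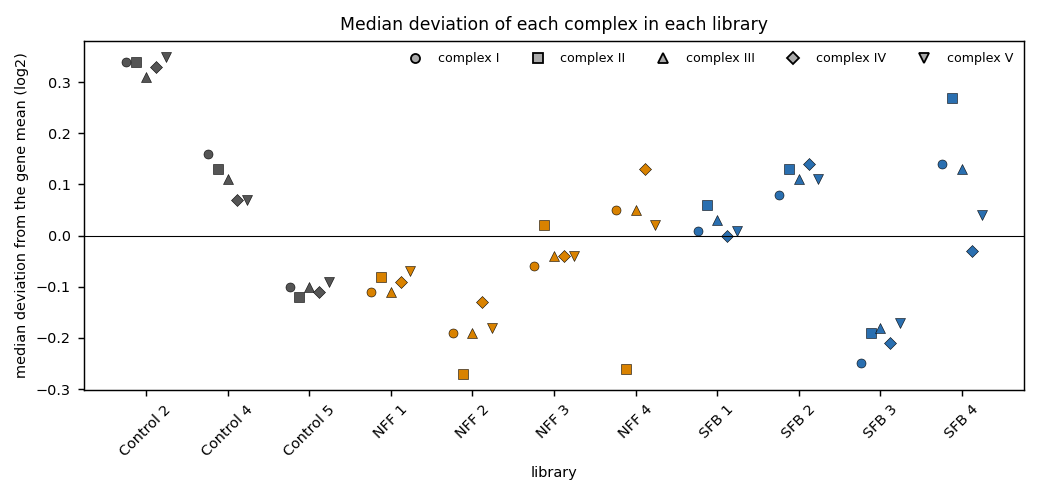
Median deviation of the members of each complex from their gene means (log2 units, y axis) in each library (x axis), with 1 marker per complex and colour by group. All 5 complexes lie at 0.31 to 0.35 in Control 2, whereas in NFF 4 complex II (-0.26) parts from complex IV (0.13) and in SFB 4 complex II (0.27) parts from complex IV (-0.03).

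Relative to each other, most members kept their place. The SD of a gene's own level over libraries, which does not measure relative place, had a median of 0.19 log2 units for members. It was 0.24 for all tested genes, whose median level was lower (6.28 against 101 RPKM). The relative range that follows was not computed for other genes. After the library median of the 79 genes was subtracted, the median member ranged over 0.36 log2 units across the 11 libraries, and 3 members ranged over more than 1. These were Cox7a1 at 2.14, Ndufa6, a complex I accessory subunit, at 1.05, and Ndufs1, the largest core subunit of complex I, at 1.01. Their extremes fell in the same libraries: Ndufa6 was relatively highest in NFF 4 and lowest in SFB 4, and Ndufs1 the reverse, while Cox7a1 was lowest in SFB 4 and highest in Control 2.

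The comparison of NFF with Control asks how a diet low in fermentable fiber relates to these mRNAs. The members lay slightly lower in NFF with no member passing the test: 78 of 79 differences were below 0, with a median of -0.19 on the log2(RPKM + 1) scale, against -0.01 for all tested genes. Over all genes, 51.7% of differences were below 0. No member was called, 0 of 79, by limma at an adjusted p under 0.05, and over all genes 0.00% were called, so nothing in the table passed this threshold. An unadjusted p under 0.05 was reached by 3 members (3.8%), against 4.82% of all genes. The libraries did not overlap for 2 members (2.53%), both lower in NFF, and 4.42% of all genes were lower in NFF without overlap. By complex the medians were -0.21 for I, -0.27 for II, -0.24 for III, -0.14 for IV and -0.19 for V. The smallest adjusted p was 0.874, for Ndufs5.

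The size of this difference depended on Control 2, the library highest in proximal markers. Without it the median was -0.08, and 61 of 79 differences were below 0. Without Control 5 the median was -0.30. Dividing cell markers were also lower in NFF than in Control, being below 0 in 16 of 16 with a median of -0.77 and with none called. Their summed level was 54.6 to 182 RPKM in Control and 42.3 to 67.7 in NFF. The lowest Control sum, 54.6, was that of Control 2, where the members were highest. Distal markers were above 0 in 10 of 10, with a median of 1.24, none called, and sums of 604 to 4895 RPKM in Control and 5305 to 5883 in NFF. No measured marker of either list was at 0 in any library, and their part in the members' difference was not tested.

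**Figure D3:**
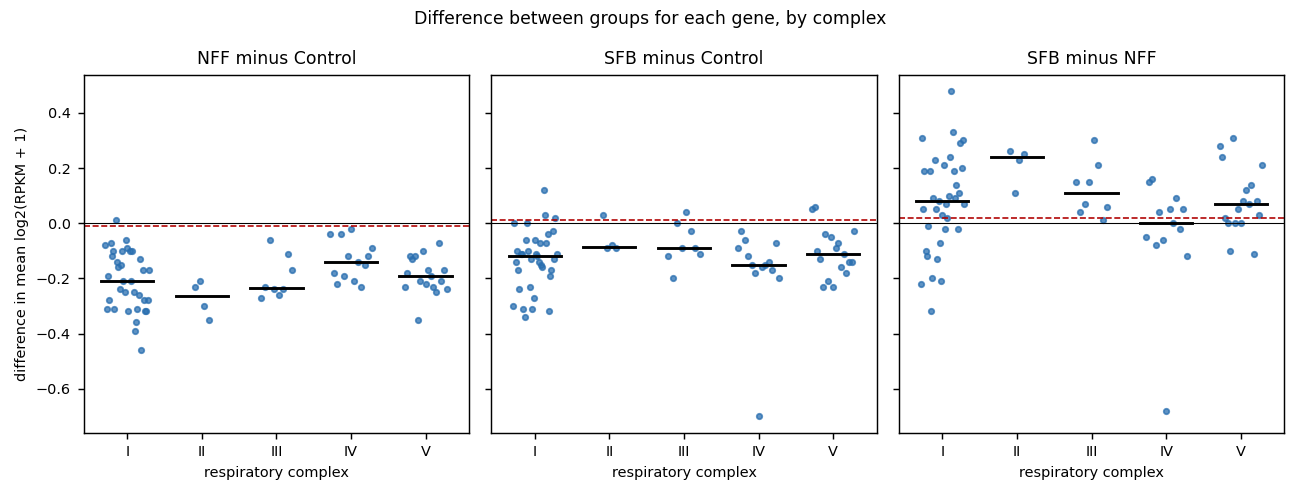
Difference between group means of log2(RPKM + 1) for each gene (points, y axis) by respiratory complex (x axis), in the 3 comparisons. The gene copies are not drawn. Black bars are medians of each complex and the red dashed line is the median of all tested genes. Nearly all points lie below 0 in NFF minus Control (76 of 77), and Cox7a1 stands apart at -0.70 and -0.68 in the comparisons of SFB.

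Within complex I, the median was -0.31 over the 7 core subunits and -0.16 over the 28 accessory subunits, a contrast that was not tested. Ndufs5, an accessory subunit at the intermembrane face (Entrez 595136, chr4:123712710-123718202, GRCm38), had the largest difference. It stood at 42.2, 36.8 and 29.0 RPKM in Control 2, 4 and 5, at 22.8, 25.5, 25.9 and 28.8 RPKM in NFF 1 to 4, and at 27.8, 31.4, 22.0 and 34.0 RPKM in SFB 1 to 4. Every NFF library was below every Control library, although NFF 4 and Control 5 were close. The log2 difference was -0.46 ± 0.17 (SE), with a limma adjusted p of 0.874. Ndufs5 shares 319 bases at 99.4% identity with a processed pseudogene in GENCODE, so its reads may have been divided. The row Ndufs5-ps was at -0.14 ± 0.16 in the same comparison, and at 0.03 without Control 2.

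Ndufc2, an accessory subunit of the membrane arm, had a difference of -0.39 ± 0.17, from 120, 116 and 89.9 RPKM in Control to 79.2, 74.4, 83.4 and 91.5 RPKM in NFF. Only NFF 4 and Control 5 overlapped. Ndufv2, which carries an iron-sulfur cluster at the NADH site, stood at 98.8, 101 and 89.4 RPKM in Control and at 77.0, 73.0, 81.7 and 85.2 RPKM in NFF, with no overlap. Its difference was -0.28 ± 0.13. Ndufv1, which binds the flavin that accepts electrons from NADH, was at -0.32 ± 0.15, and at -0.19 without Control 2. The iron-sulfur subunits Ndufs7 and Ndufs8 were at -0.28 ± 0.14 and -0.32 ± 0.17, and Ndufs7 was at -0.18 without Control 2.

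Ndufs1, the largest core subunit (Entrez 227197, chr1:63143596-63176833, GRCm38), stood at 38.1, 40.8 and 33.2 RPKM in Control, and at 32.1, 27.5, 33.8 and 22.7 RPKM in NFF. NFF 4 was the lowest of all 11 libraries, and NFF 3 lay above Control 5. The log2 difference was -0.36 ± 0.18, and -0.26 without NFF 4. Ndufa6 was the 1 member above 0, at 0.01 ± 0.19. Its 4 NFF libraries held 73.2, 73.3, 76.9 and 103 RPKM, and without NFF 4 its difference was -0.11.

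All 4 subunits of complex II were below 0 in NFF against Control. The flavoprotein Sdha stood at 150, 150 and 137 RPKM in Control, and at 134, 127, 143 and 96.1 in NFF. NFF 4 was again far below the other NFF libraries, and the groups overlapped. The difference was -0.23 ± 0.17, and -0.11 without NFF 4. Sdhb was at -0.21 ± 0.16 and Sdhc at -0.30 ± 0.16, and without Control 2 they were at -0.09 and -0.20. The anchor Sdhd stood at 554, 436 and 359 RPKM in Control and at 360, 308, 390 and 337 in NFF. Its difference was -0.35 ± 0.19, and -0.19 without Control 2. None of the 4 had an adjusted p below 0.896.

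In complex III all 8 differences were below 0 in NFF against Control, from -0.27 to -0.06. The small subunit Uqcr10 was at -0.27 ± 0.17 and the core protein Uqcrc2 at -0.26 ± 0.16. The Rieske protein Uqcrfs1, whose iron-sulfur head carries electrons towards cytochrome c, stood at 372, 323 and 266 RPKM in Control and 292, 242, 282 and 258 in NFF. Its difference was -0.24 ± 0.17, with overlapping groups, and the core protein Uqcrc1 had the same -0.24 ± 0.14. Without Control 2, Uqcr10, Uqcrfs1 and Uqcrc1 were at -0.11, -0.13 and -0.16. The smallest difference was -0.06 for Uqcrb, whose Control libraries averaged 267 ± 14.6 RPKM (SD, n = 3) and NFF libraries 256 ± 17.4 (SD, n = 4).

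Complex IV had the smallest shift, with all 13 differences below 0 but between -0.23 and -0.02. Cox7b, a small structural subunit, was at -0.23 ± 0.14 and the zinc-binding subunit Cox5b at -0.22 ± 0.14. Cox7a2 was at -0.21 ± 0.17, and its muscle counterpart Cox7a1 at -0.02 ± 0.35. Without Control 2, Cox7b, Cox5b, Cox7a2 and Cox7a1 were at -0.13, -0.11, -0.07 and 0.35. The abundant subunits Cox4i1 and Cox6a1 had intervals (95%) of -0.37 to 0.29 and -0.41 to 0.32. Without Control 2 the median of the complex was -0.02.

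In complex V all 17 differences were below 0, from -0.35 to -0.07. Atp5g1, 1 of the genes of the rotor ring, stood at 37.2, 33.9 and 25.2 RPKM in Control and at 24.7, 22.0, 25.9 and 26.2 RPKM in NFF. Control 5 lay among the NFF libraries. The difference was -0.35 ± 0.15, with an unadjusted p of 0.036 and a limma adjusted p of 0.896. Atp5l, a membrane subunit, was at -0.25 ± 0.14 and the peripheral stalk subunit Atp5pb at -0.24 ± 0.13, and Atp5l was at -0.10 without Control 2. The catalytic subunits Atp5a1 and Atp5b were at -0.23 ± 0.16 and -0.18 ± 0.15. Atp5g1 transcripts share 411 bases at 99.8% identity with a processed pseudogene, so its reads may also have mapped elsewhere.

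SFB and Control mice ate the same chow, so their comparison asks about colonization. The members lay close to Control: 71 of 79 differences were below 0 with a median of -0.11, while 47.5% of all genes were below 0 with a median of 0.01. No member was called, 0 of 79, by limma, against 0.200% of all genes (21 of 10482). An unadjusted p under 0.05 was reached by 1 member, Ndufa7, against 12.1% of all genes. Libraries did not overlap for 3 members (3.8%), all lower in SFB, and 6.05% of all genes were lower in SFB without overlap. Complex medians were -0.12 for I, -0.08 for II, -0.09 for III, -0.15 for IV and -0.11 for V. Without Control 2 the median was 0.00, and 39 of 79 members were below 0. With SFB 2 and SFB 4 left out as well, the median was -0.10 and 72 members were below 0, so the size and direction depended on which libraries were kept. Markers of other cell states moved alongside, none called: 9 of 9 Paneth (median -2.56), 8 of 8 goblet (-0.80) and 6 of 6 tuft cell markers (-1.33) were below 0, and 16 of 16 dividing cell markers (0.64) above. Summed levels in Control and SFB were 17651 to 32671 and 432 to 17749 RPKM for Paneth, 7637 to 11506 and 3636 to 8460 for goblet, 40.6 to 79.8 and 6.79 to 30.4 for tuft, and 54.6 to 182 and 86.7 to 369 for dividing cell markers. Cd44, the marker sorted against, was at 1.17 to 2.29 RPKM in SFB and 0.457 to 0.969 in Control. Their part in the members' difference was not tested.

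The 3 members lower in SFB than in Control without overlap (3.8%, against 6.05% of all genes) were accessory subunits of complex I. Ndufa7 stood at 33.1, 28.5 and 25.6 RPKM in Control and at 23.5, 24.8, 18.4 and 24.4 RPKM in SFB. All SFB libraries were below all Control libraries, and the difference was -0.34 ± 0.15 with a limma adjusted p of 0.388. Ndufb3 stood at 170, 150 and 132 RPKM in Control and at 129, 132, 98.3 and 126 in SFB, with a difference of -0.31 ± 0.15. Ndufb4 was at -0.27 ± 0.15, from 61.5, 57.7 and 53.1 RPKM to 50.1, 53.1, 37.8 and 50.7 RPKM. For both of these the highest SFB library and the lowest Control library are equal at the digits printed. SFB 3 was the lowest library for all 3 genes, and without it their differences were -0.25, -0.21 and -0.16. Ndufs5 was at -0.32 ± 0.17 and Ndufa6 at -0.31 ± 0.19, with overlapping groups, and without Control 2 they were at -0.20 and -0.13.

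The core subunits of complex I had a median of -0.03 with 4 of 7 below 0, and the accessory subunits a median of -0.13 with 28 of 28 below 0, a contrast that was not tested. Ndufs1 was the highest member, at 0.12 ± 0.18, and it was at -0.01 without SFB 4. In complex II the differences ran from -0.09 to 0.03, and in complex III from -0.20 for Uqcr11 (± 0.16), a small membrane subunit, to 0.04 for Uqcrc2. The small subunits Uqcr10 and Uqcrq were at -0.12 ± 0.17 and -0.11 ± 0.16, and without Control 2 Uqcr11, Uqcr10 and Uqcrq were at -0.05, 0.04 and 0.05. In complex V, Atp5h of the peripheral stalk and the small subunit Atp5e were both at -0.23 (± 0.15 and ± 0.16), but at -0.09 and -0.03 without Control 2. Atp5g2 was at -0.21 ± 0.14, and at -0.13 without SFB 3, and Atp5a1 and Atp5b lay at 0.05 and 0.06 (-0.02 and -0.01 without Control 5). Complex IV had all 13 differences below 0, from -0.70 for Cox7a1 to -0.03 for Cox5a, and Ndufa4 was at -0.20 ± 0.16 and Cox6c at -0.18 ± 0.14. Without Control 2, Ndufa4, Cox6c and Cox5a were at -0.06, -0.04 and 0.05.

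Cox7a1 (Entrez 12865, chr7:30184144-30186078, GRCm38) varied most of all 79 genes, with an SD over libraries of 0.59 log2 units. It stood at 204, 89.8 and 101 RPKM in Control 2, 4 and 5. In NFF 1 to 4 it stood at 111, 108, 112 and 160 RPKM, and in SFB 1 to 4 at 96.0, 115, 70.4 and 41.2 RPKM. The 3 groups overlapped, with Control 2 far above and SFB 4 far below the rest. The SFB difference was -0.70 ± 0.35 from Control (limma adjusted p 0.457) and -0.68 ± 0.32 from NFF (limma adjusted p 0.208). Leaving out SFB 4 reduced them to -0.42 and -0.40, and leaving out Control 2 reduced the former to -0.34. Without Control 2, SFB 2 and SFB 4 together, they were -0.21 and -0.56.

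**Figure D4:**
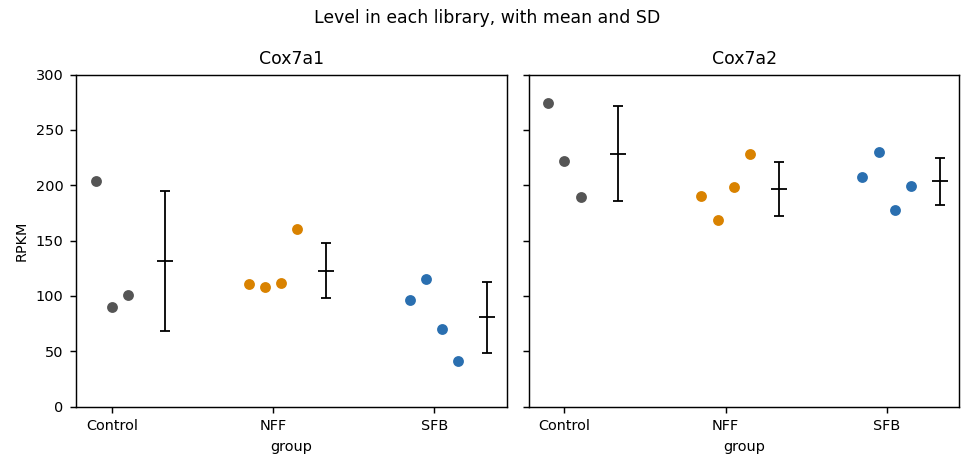
RPKM of Cox7a1 and Cox7a2 in each library (points) by group, with the mean and SD of the group beside them (bars). Cox7a1 runs from 41.2 (SFB 4) to 204 (Control 2) RPKM, a ratio of 4.95, and Cox7a2 from 169 to 274 RPKM, a ratio of 1.62.

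Cox7a2, the other isoform at this position of complex IV, stood at 274, 222 and 189 RPKM in Control, 190, 169, 198 and 228 in NFF, and 207, 230, 178 and 199 in SFB. As a share of the summed RPKM of the pair, Cox7a1 made up 42.6%, 28.8% and 34.8% in Control. It made up 36.9%, 39.1%, 36.2% and 41.3% in NFF and 31.7%, 33.3%, 28.3% and 17.2% in SFB. All 4 SFB libraries had a lower share than all 4 NFF libraries, and the Control libraries spanned both. Enterocyte markers moved the same way in the extreme libraries, with summed levels of 11526 RPKM in Control 2 and 1927 in SFB 4. The group ranges of that sum were 3822 to 11526 in Control, 6330 to 7809 in NFF and 1927 to 7264 in SFB. In SFB against NFF, 10 of 10 enterocyte markers were below 0 and 1, the sucrase-isomaltase gene Sis, was called. The part of these cells in the Cox7a1 result was not tested.

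SFB and NFF differ in both diet and colonization, so their difference cannot be assigned to either. Here too no member was called, 0 of 79, by limma, although 7.34% of all genes were (769 of 10482). An unadjusted p under 0.05 was reached by 4 members (5.06%), against 25.7% of all genes. Differences were below 0 for 24 of 79 members (30.4%), against 47.3% of all genes, and the median was 0.07, against 0.02 for all genes. Libraries did not overlap for 2 members (2.53%), both higher in SFB, and 10.1% of all genes were higher in SFB without overlap. Without Control 2, SFB 2 and SFB 4 the median was -0.02, and 45 members were below 0. The NFF and SFB libraries enter 2 comparisons each and Control enters 2, so values for the same gene in the 3 comparisons are not independent.

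In complex I the positive differences between SFB and NFF were larger for core than for accessory subunits, a contrast that was not tested. All 7 core subunits of complex I were above 0, with a median of 0.29, against 0.05 for the 28 accessory subunits. Ndufs1 was at 0.48 ± 0.16 (limma adjusted p 0.0930), with 40.1, 37.8, 33.3 and 53.1 RPKM in SFB and 32.1, 27.5, 33.8 and 22.7 in NFF. SFB 3 lay just below NFF 3, and the other SFB libraries lay above all NFF libraries. Without SFB 4 the difference was 0.35, and without NFF 4 it was 0.37. Ndufv2 was at 0.30 ± 0.12 (limma adjusted p 0.142) and Ndufs8 at 0.29 ± 0.16. Among accessory subunits Ndufa10 was highest, at 0.31 ± 0.15, and Ndufa6 lowest, at -0.32 ± 0.18. Without SFB 4, Ndufs8 and Ndufa10 were at 0.18 and 0.19, and without NFF 4 Ndufa6 was at -0.21.

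In complexes II, III and V, some catalytic or core subunits were among the highest values and others were not. Sdhb, the lowest of complex II, was at 0.11 ± 0.15, and the central stalk subunit Atp5c1 at 0.02 ± 0.13. Sdha was at 0.26 ± 0.15 and Sdhd at 0.25 ± 0.17, and the core protein Uqcrc2 at 0.30 ± 0.15. Sdha was at 0.14 without NFF 4. Uqcrfs1 was at 0.21 ± 0.16 and Uqcr10 at 0.15 ± 0.15, and Uqcr10 was at 0.08 without SFB 4. All 4 members of complex II and all 8 of complex III were above 0. In complex V, Atp5g1 was at 0.31 ± 0.14 with SFB libraries of 29.6, 31.5, 27.1 and 35.9 RPKM, all above the NFF libraries, whose highest was 26.2 RPKM. Atp5b, which holds the catalytic sites, stood at 362, 382, 349 and 396 RPKM in SFB and 337, 305, 342 and 283 RPKM in NFF, without overlap. Its difference was 0.24 ± 0.14 (limma adjusted p 0.305), and Atp5a1 was at 0.28 ± 0.15. Complex IV had a median of -0.00, with 7 of 13 below 0, Cox5b highest at 0.16 ± 0.13 and Cox5a at 0.15 ± 0.13.

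Transcript length ran alongside these differences. Member transcripts are short, with a median of 849.5 bases in GENCODE against 3033 for all genes, and 46 of the 78 members with a length were under 1000 bases. The length is that of the longest protein-coding transcript marked as principal in GENCODE, or of another where none was marked. It need not be the form expressed in these cells. Across the 78 members, Spearman's rho between transcript length and the deviation in a library was -0.63 in NFF 4, -0.40 in Control 2 and -0.36 in NFF 2. It was 0.40 in Control 4, 0.36 in SFB 3, 0.48 in SFB 1 and 0.52 in SFB 4, and -0.14 to 0.11 in the other 4 libraries. These are descriptions across genes of the same libraries, and genes are not independent replicates. Over all 10455 tested genes with a length, rho was between -0.32 and 0.35, at -0.26 in NFF 4 and 0.01 in SFB 4.

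The 18 members of 1500 or more bases had a median deviation of -0.24 in NFF 4 and 0.26 in SFB 4. The 30 members under 700 bases were at 0.11 and 0.02. Accordingly the median of SFB against NFF was 0.23 over the 18 long members, of which 1 was below 0, and 0.03 over the 30 short ones, of which 14 were. In SFB against Control the medians were -0.03 and -0.16, and in NFF against Control -0.24 and -0.16. Sdha, Uqcrc2, Atp5a1, Atp5b and the complex I core subunits Ndufs1, Ndufv1 and Ndufv2 were among the 18. Length and role overlapped only in part: the core subunits Ndufs7 (983 bases) and Ndufs8 (1005 bases) were shorter, and the accessory subunits Ndufb2 (4371 bases) and Ndufv3 (1582 bases) were among the 18. Their separate parts were not tested.

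**Figure D5:**
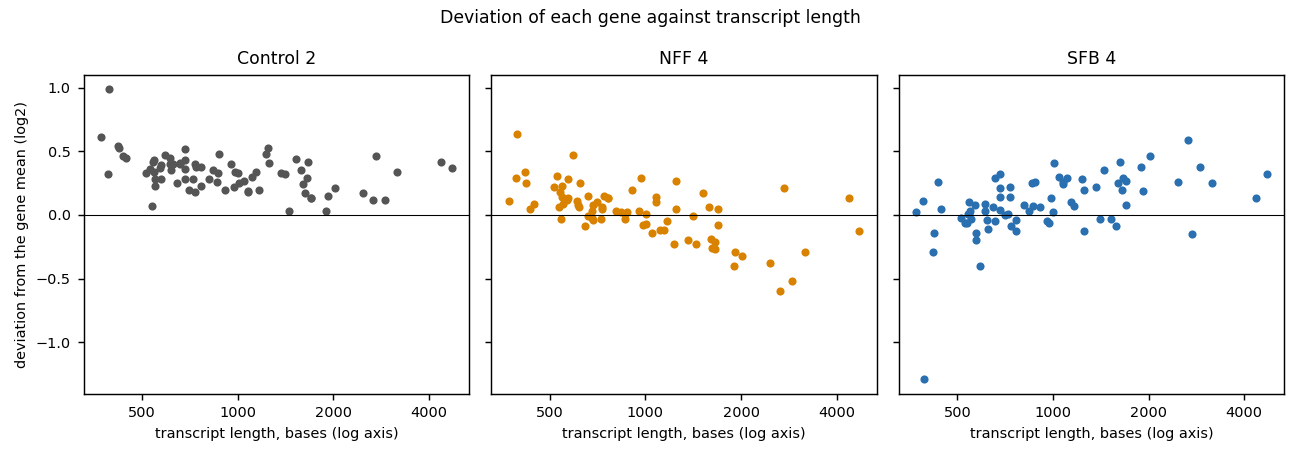
Deviation of each of 78 members from its mean over the 11 libraries (log2 units, y axis) against its transcript length in bases (log axis) in Control 2, NFF 4 and SFB 4, with 1 point per gene. The points slope down in NFF 4 (rho -0.63) and up in SFB 4 (rho 0.52), where the lowest point is Cox7a1, and lie above 0 throughout in Control 2.

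Gene copies and overlaps limit some values. GENCODE lists Ndufb4c, a complex I copy on chr15:73809507-73809896, as a processed pseudogene, identical to Ndufb4 over 390 bases, while RefSeq lists it as protein-coding. RefSeq lists Ndufs5-ps as a transcribed pseudogene on chr16:42955580-42956079. Ndufb4c held 44.1% to 49.2% of the summed RPKM of its pair, and Ndufs5-ps 46.7% to 56.9% of its pair. The Ndufs5-ps share was 46.7% to 51.4% in Control, 53.2% to 56.9% in NFF and 49.8% to 55.8% in SFB. Control and NFF did not overlap in it. Ndufs5 enters this share and was singled out for its difference between these groups, so the share is not independent of that difference. Whether reads were divided differently between the rows was not tested. In all, 26 members had a transcript of another gene matching at 95% or more over at least 100 bases, and 28 shared exon bases with another gene. For 3 of the 28, the gene sharing the most bases lay on the same strand. Strands of further overlapping genes were not counted. The libraries carry no strand information, so reads in shared exons cannot be assigned.

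Other mitochondrial genes were read from lists in the same fit. Of the 11 tested respiratory chain genes outside the name rule, 7 were below 0 in each comparison with Control. Their medians were -0.03 in NFF and -0.11 in SFB, and none was called in either. In SFB against NFF the electron carrier cytochrome c, Cycs, rose by 0.61 ± 0.15 (limma adjusted p 0.0359), from 69.1 ± 8.13 RPKM in NFF (SD, n = 4) to 107 ± 17.8 in SFB (SD, n = 4). Sqor, which feeds electrons from sulfide to coenzyme Q, fell by 0.53 ± 0.12 (limma adjusted p 0.0248), from 31.2 ± 3.6 to 21.3 ± 2.05 RPKM. Among 46 assembly factors, 36 were below 0 in NFF against Control with a median of -0.16, and 23 in SFB against Control with a median of -0.00. None was called in either, and in SFB against NFF 1 was, the complex IV assembly factor Cox16, which fell by 0.46 ± 0.12 (limma adjusted p 0.0368).

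The tricarboxylic acid cycle, which supplies NADH and succinate, had 17 of 18 genes below 0 in NFF against Control (median -0.21) and 8 of 18 in SFB against Control (median 0.02). In SFB against NFF 1 of 18 was below 0, with a median of 0.20, and none was called in any comparison. Mitochondrial protein import had 23 of 23 below 0 in NFF against Control, with a median of -0.27, and 10 of 23 in SFB against Control, with a median of 0.02. Mitochondrial ribosomal proteins were below 0 in 73 of 77 and 44 of 77, with medians of -0.21 and -0.02, and Mrpl16 alone was called, higher in SFB than in NFF by 0.49 ± 0.13. Cytosolic ribosomal proteins, which lie outside mitochondria, had 74 of 78 below 0 in NFF against Control and 71 of 78 in SFB against Control, with medians of -0.13 and -0.11. Their library order differed from that of the members: their mean deviation was highest in SFB 4 at 0.43 and Control 4 at 0.34, and it was -0.04 in Control 2. Mitochondrial ribosomal proteins and protein import were likewise highest in SFB 4 (0.47 and 0.60) and Control 4 (0.29 and 0.34). In Control 2 they were at 0.03 and 0.09. The respiratory chain genes outside the name rule were highest in Control 2, at 0.19.

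Coenzyme Q synthesis had 11 of 13 genes below 0 against Control in both groups, with medians of -0.22 in NFF and -0.08 in SFB. Coq5, a methyltransferase of that pathway, rose by 0.70 ± 0.19 in SFB against NFF (limma adjusted p 0.0487). Among 18 genes of mitochondrial gene expression and biogenesis, 10 were below 0 in NFF against Control (median -0.05). In SFB against Control 5 were (median 0.02). Of these genes Ppargc1b, a coactivator of respiratory chain genes, rose by 0.84 ± 0.22 in SFB against NFF (limma adjusted p 0.0410). It stood at 4.96 ± 1.29 RPKM in NFF and 9.80 ± 3.51 in SFB (SD, n = 4 each). No other of the 18 was called in SFB against NFF, where 7 were below 0 and the median was 0.15. Esrra and Polg2 were among the 7, at -0.35 ± 0.11 and -0.34 ± 0.11. Of 17 glycolysis genes, Pgk1 and Hk2 were called in SFB against NFF, higher by 0.71 ± 0.15 and 0.99 ± 0.26, and none against Control. In the same comparison all 16 dividing cell markers were above 0 with a median of 1.46, and 2, Birc5 and Ccnb2, were called higher. Their summed level was 86.7 to 369 RPKM in SFB and 42.3 to 67.7 in NFF. All 6 measured tuft cell markers were called lower in SFB than in NFF, with a median of -1.97 and sums of 6.79 to 30.4 RPKM against 65.7 to 112. The part of these cells in the differences was not tested.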

How the data were processed

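Total RNA of sorted epithelial cells was converted to cDNA with the SMART-seq v4 kit and made into libraries with NexteraXT, per the labels' protocols, kits that keep no strand and add no molecular identifiers. The authors deposited 1 table of RPKM values for 11366 genes, per the file headers. The submitters' processing notes name STAR and the mm10 build, while the counting tool and the gene lengths were not given in the sources used. RPKM is not a count, so log2(RPKM + 1) was fitted with limma 3.58.1 in R 4.3.3: 1 mean per group, all 11 libraries, 8 residual degrees of freedom, eBayes with a mean trend, over the 10482 genes that reached 1 RPKM in 3 or more libraries. Adjusted p-values are Benjamini-Hochberg over these genes, and called means under 0.05. This scale understates the change of genes near 1 RPKM. Spans, lengths and exon overlaps came from GENCODE M21 (GRCm38), where 78 members were found, and similar transcripts from blastn 2.17.0. The code was tested on simulated data.

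The members and lists were chosen with earlier results of these data known. By rule the text names the 3 largest differences per comparison in complexes I, III, IV and V, all of complex II, the core and catalytic subunits and paralog sets, and, from other lists, called genes or the 2 of lowest p. The 2 gene copies, Ndufv3, Ndufb3, Ndufb4, Ndufa10, Ndufb2, Ndufb9, Uqcrb, Uqcrh and Ndufs3 were named after their values were seen. The values of 1 member are not reported here. Alternatives were a pseudocount of 0.1, no filter, a filter at 5 RPKM, median ratio scaling, quantile normalization, no trend, array weights, only the groups compared, the replicate block, each library left out, and, chosen after seeing the data, 3 libraries left out together.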

Additional observations from a re-analysis of the deposited data

Results flagged for a closer look

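The RPKM of the named members, the median level of each complex and the paralog shares were looked at in the groups of 4 libraries, 102 groups in all, for a library far from the other 3. There were 3 such values, where chance gives about 1 in 20 groups. Cox7a1 stood at 160 RPKM in NFF 4, against 108 to 112 in the other NFF libraries. Ndufa6 stood at 103 RPKM in NFF 4, against 73.2 to 76.9. The median level of complex I, as log2(RPKM + 1), was 5.81 in SFB 3, against 6.14 to 6.16 in the other SFB libraries.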

How the results depend on the processing

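For NFF against Control, the median of the 79 genes was below 0 under every alternative run, from -0.30 to -0.07, and 61 to 79 of them were below 0. No member was called in either comparison with Control under any alternative. For SFB against Control, the median was 0.05 with array weights, 0.00 without Control 2 and -0.24 to 0.00 over the libraries left out in turn. Members below 0 numbered 42 with quantile normalization, 18 with array weights and 39 to 78 over the libraries left out. For SFB against NFF, the median was -0.02 without Control 2, SFB 2 and SFB 4, an alternative chosen after seeing the data, and 0.03 to 0.14 over the libraries left out. Members below 0 numbered 13 with quantile normalization, 13 with array weights, 45 without those 3 libraries and 14 to 32 over the libraries left out. Here 2 members, Ndufs1 and Ndufv2, were called higher with quantile normalization, and 13 members were called with array weights. Array weights gave SFB 1 a weight of 22.1 and the other libraries 0.152 to 2.49.

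Genes called over the whole table moved more. NFF against Control gave 40 with array weights, 1 with only the groups compared, 22 without the 3 libraries and 0 to 8 over the libraries left out (8 without SFB 4). SFB against Control gave 1948 with array weights, 1 with only the groups compared, 112 without the 3 libraries and 7 to 94 over the libraries left out. SFB against NFF gave 1173 with quantile normalization, 4720 with array weights and 242 to 1000 over the libraries left out. With the replicate block, SFB against Control gave 0 genes called and SFB against NFF 335. Same-numbered libraries had correlations of -0.30 to 0.67, not all over 0.1, so the numbers were not taken as pairs. The causes of these changes were not tested.

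Of 62 gene differences followed, these changed sign. Cox7a1 in NFF against Control was 0.03 with quantile normalization, 0.11 with array weights, 0.35 without the 3 libraries and -0.24 to 0.35 over the libraries left out, among them 0.02 and 0.04. Ndufs5-ps there was 0.02 with array weights, 0.03 without the 3 libraries and -0.26 to 0.03 over the libraries left out. Ndufa6 in that comparison was -0.10 without Control 4, -0.06 without Control 5 and -0.11 without NFF 4, with a highest value of 0.19 without Control 2. In SFB against Control, Atp5e was 0.01, Ndufa4 0.06, Uqcr11 0.04, Uqcr10 0.06, Uqcrq 0.11 and Cox5a 0.12 with array weights, Cox5a was 0.08 with quantile normalization, Atp5a1 was -0.04 and Atp5b -0.03 with the replicate block, Uqcrc2 was -0.15 without the 3 libraries, and Ndufs1 was -0.01 without SFB 4 and without the 3 libraries, with a highest value of 0.21 without SFB 3. Over the libraries left out there, Atp5a1 was -0.02 to 0.10, Atp5b -0.01 to 0.11, Cox5a -0.13 to 0.05, Uqcr10 -0.26 to 0.04, Uqcrc2 -0.05 to 0.14 and Uqcrq -0.25 to 0.05. Depth is unknown, so no counting error can be given.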
